A study of Mus musculus with 11 samples.

Results

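Tuft cell genes were followed in mouse AKP colon cancer organoids by poly(A) RNA sequencing. The 10 genes were taken by name: the lineage factor Pou2f3, the channel Trpm5, and the structural, signalling and enzyme genes Dclk1, Avil, Sh2d6, Plcg2, Cd24a, Ptgs1, Hpgds and Alox5ap. Of the 10 names, 9 had a row among the 23224 gene names of the table, and 7 of those passed the filter on low counts that left 13720 genes for testing. Pou2f3 and Trpm5 did not pass it, and Sh2d6 is not analysed here. The 11 libraries fell into 5 groups, all of AKP genotype. The C57Bl6 tumour-derived group (3 libraries) was cultured out of primary tumours of immunocompetent C57Bl6 recipients, and the RAG2KO tumour-derived group (3 libraries) out of tumours of immunodeficient RAG2KO recipients. Both followed orthotopic transplantation of naive organoids through a colonoscope, and serial passage was meant to leave cancer cells alone, per the submitters' design text. The constitutive SOX17OE line and the doxycycline-inducible SOX17OE line (1 library each) are naive organoids transduced with a lentiviral SOX17 construct. The labels do not say whether the inducible line received doxycycline. The naive group had 3 libraries. Sex and age of the recipients, and which allele or alleles each letter of AKP stands for, are not given in the labels.

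Tuft cells are rare chemosensory cells of the gut epithelium. POU2F3 is the transcription factor that they need to form, and TRPM5 is a cation channel that opens downstream of their taste-type receptors. Once triggered they release interleukin-25, prostaglandins, leukotrienes and acetylcholine, and their apical tuft is built on actin bundles. Several of the genes used to recognise them are also made by other cells: Ptgs1, Hpgds, Alox5ap and Plcg2 by leukocytes, and Cd24a by epithelial progenitors.

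Library totals ranged from 14109182 to 22154456 counts, so that 3 counts, the limit that a count of 0 allows, corresponded to 0.131 to 0.214 CPM (counts scaled to library totals of equal size) in a library. These floors and all counting intervals cover counting error only. Sox17, the overexpressed gene, was at 18.4, 12.4 and 74.4 CPM in C57Bl6 tumour-derived, 22.2, 15.4 and 24.4 CPM in RAG2KO tumour-derived, 72.7 CPM in constitutive SOX17OE and 4.78 CPM in inducible SOX17OE libraries, against 0.214, 0.0438 and 0.0477 CPM in naive libraries. All 5 epithelial markers Epcam, Krt8, Krt19, Cdh1 and Cldn7 were present, and their summed level was between 5590 and 9698 CPM in every library. Against naive, 1 of the 5 fell in C57Bl6 tumour-derived libraries, 2 in RAG2KO tumour-derived libraries and 3 in the SOX17OE lines, and 0 rose. Over all tested genes, 5.85%, 13.3% and 5.92% fell in these comparisons. The summed level of 21 leukocyte and mast cell markers was 39.9 to 71.5 CPM in C57Bl6 tumour-derived, 56.5 to 84.6 CPM in RAG2KO tumour-derived, 41.2 CPM in constitutive and 30.2 CPM in inducible SOX17OE libraries, against 36.2 to 46.6 CPM in naive libraries. Most of it was Cd14 and Cd68, and Tyrobp, C1qa, Cpa3, Tpsb2, Fcer1a and Ms4a2 were at 0 in all 11 libraries. The 6 tested markers had a median log2 fold change against naive of 1.70 in C57Bl6 and 1.75 in RAG2KO tumour-derived libraries. The median of all tested genes was 0.02 in both. Ptprc, Csf1r, Itgam and Kit passed the filter on low counts only through tumour-derived libraries. They reached 1.01, 1.28, 1.81 and 1.57 CPM there and at most 0.238 CPM elsewhere, so that the median is partly set by the filter. Of the 6 tested markers, 0 passed the test in C57Bl6 and 2 rose in RAG2KO tumour-derived libraries. Beside this, 9.50% and 16.0% of all tested genes rose in these comparisons. By mean, Itgam, Csf1r and Kit lay above naive in both groups. Cd68 lay below naive in C57Bl6 (6.10 against 6.49 CPM), as did Ptprc in RAG2KO tumour-derived libraries. The share of counts in the ribosomal RNA row Rn45s was 2.21% to 3.77% in C57Bl6 tumour-derived and 6.56% to 8.54% in RAG2KO tumour-derived libraries, 6.39% in the constitutive and 3.71% in the inducible SOX17OE library, and 2.42% to 4.99% in naive libraries. Its part in the results was not tested.

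Pou2f3, the lineage factor, was close to absent. It had 4 counts in all 11 libraries together, was at 0 in 9 of them, and reached 0.105 CPM in C57Bl6 tumour-derived replicate 1 and 0.135 CPM in RAG2KO tumour-derived replicate 1. Both values lie at or under the limit that a count of 0 allows, so that no difference was detectable at this depth. Trpm5, the channel, had 22 counts in all and at most 6 in a library. It was at 0, 0 and 0.152 CPM in C57Bl6 tumour-derived, 0, 0.292 and 0 CPM in RAG2KO tumour-derived, 0.0576 CPM in constitutive SOX17OE and 0.233 CPM in inducible SOX17OE libraries, against 0.0715, 0.0876 and 0.286 CPM in naive libraries. The groups overlapped, and the highest values were in a RAG2KO tumour-derived and a naive library. Trpm5 overlaps Tssc4 on the opposite strand in the GENCODE M21 annotation, so that its few reads may be divided with that gene. Neither Pou2f3 nor Trpm5 was called by edgeR in any comparison when genes of low count were kept among 18414 tested. Since bulk RNA was measured, fewer cells of a type and less RNA per cell cannot be told apart.

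Of a list of 47 further tuft cell genes, 22 were likewise too low to test and 25 could be tested. Of these, 5 were at 0 in all 11 libraries: the taste G protein subunit gene Gnat3, the succinate receptor gene Sucnr1, Rgs13, the cytokine gene Il25 and Ly6g6f. In all, 20 of the 22 stayed under 0.5 CPM in every library, among them Chat, which encodes the acetylcholine-making enzyme, with 2 counts in all, the transcription factor gene Gfi1b with 8, and Pou2af2, a coactivator of POU2F3, with 2. The highest level among the 22 was 0.584 CPM, that of Tslp.

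Dclk1, a doublecortin-like kinase and the usual histological marker of mouse intestinal tuft cells, was low throughout but higher in C57Bl6 tumour-derived libraries. It was at 0.786, 3.59 and 0.505 CPM in C57Bl6 tumour-derived, 0.270, 0.526 and 0.312 CPM in RAG2KO tumour-derived, 0.173 CPM in constitutive SOX17OE and 0 CPM in inducible SOX17OE libraries, against 0.143, 0.0438 and 0.0477 CPM in naive libraries. Both sets of tumour-derived libraries lay above all naive libraries, and C57Bl6 replicate 2 stood apart from its group. In counts this was 89 in C57Bl6 tumour-derived libraries and 18 in RAG2KO tumour-derived libraries, against 4 in naive libraries. With TMM-scaled library totals, the ratio to naive was 22.7 in C57Bl6 tumour-derived (95% counting interval 8.55 to 85) and 5.42 in RAG2KO tumour-derived libraries (1.78 to 22). Against naive, Dclk1 rose in C57Bl6 tumour-derived libraries (log2 fold change 4.37, SE 0.95, adjusted p = 0.0131), and in RAG2KO tumour-derived libraries it did not pass the test (2.27, SE 1.0, adjusted p = 0.114). The C57Bl6 call was lost when naive replicate 2 or 3 was left out (adjusted p = 0.0675 and 0.0533), and the log2 fold change was 3.05 without C57Bl6 replicate 2, where the ratio was 9.29 (3.21 to 36.7). With limma voom it was 3.42, and limma voom also called Dclk1 in RAG2KO tumour-derived libraries (2.29, adjusted p = 0.0491).

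Avil, Plcg2 and Cd24a, which act in the cell's structure and signalling, rose against naive organoids in both kinds of tumour-derived organoid. Avil encodes advillin, an actin-binding protein of the villin and gelsolin family that marks the tuft. It was at 154, 82.7 and 134 CPM in C57Bl6 tumour-derived, 111, 149 and 126 CPM in RAG2KO tumour-derived, 10.1 CPM in constitutive SOX17OE and 5.60 CPM in inducible SOX17OE libraries, against 5.22, 2.89 and 5.86 CPM in naive libraries. The 6 tumour-derived libraries lay between 82.7 and 154 CPM and the other 5 at or under 10.1 CPM. The means were 124 ± 36.9 CPM in C57Bl6 tumour-derived and 129 ± 19.3 CPM in RAG2KO tumour-derived libraries, against 4.66 ± 1.56 CPM in naive libraries (SD, n = 3 each). Avil was 26.7-fold higher in C57Bl6 tumour-derived than in naive libraries (log2 fold change 4.74, SE 0.32, adjusted p = 3.23e-05) and 27.9-fold higher in RAG2KO tumour-derived than in naive libraries (4.80, SE 0.32, adjusted p = 3.45e-05). Tsfm, which overlaps Avil on the opposite strand in the GENCODE M21 annotation, was not called in any comparison, with log2 fold changes against naive of -0.15 in C57Bl6 tumour-derived and -0.45 in RAG2KO tumour-derived libraries. The labels do not say whether reads were counted by strand.

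**Figure D1:**
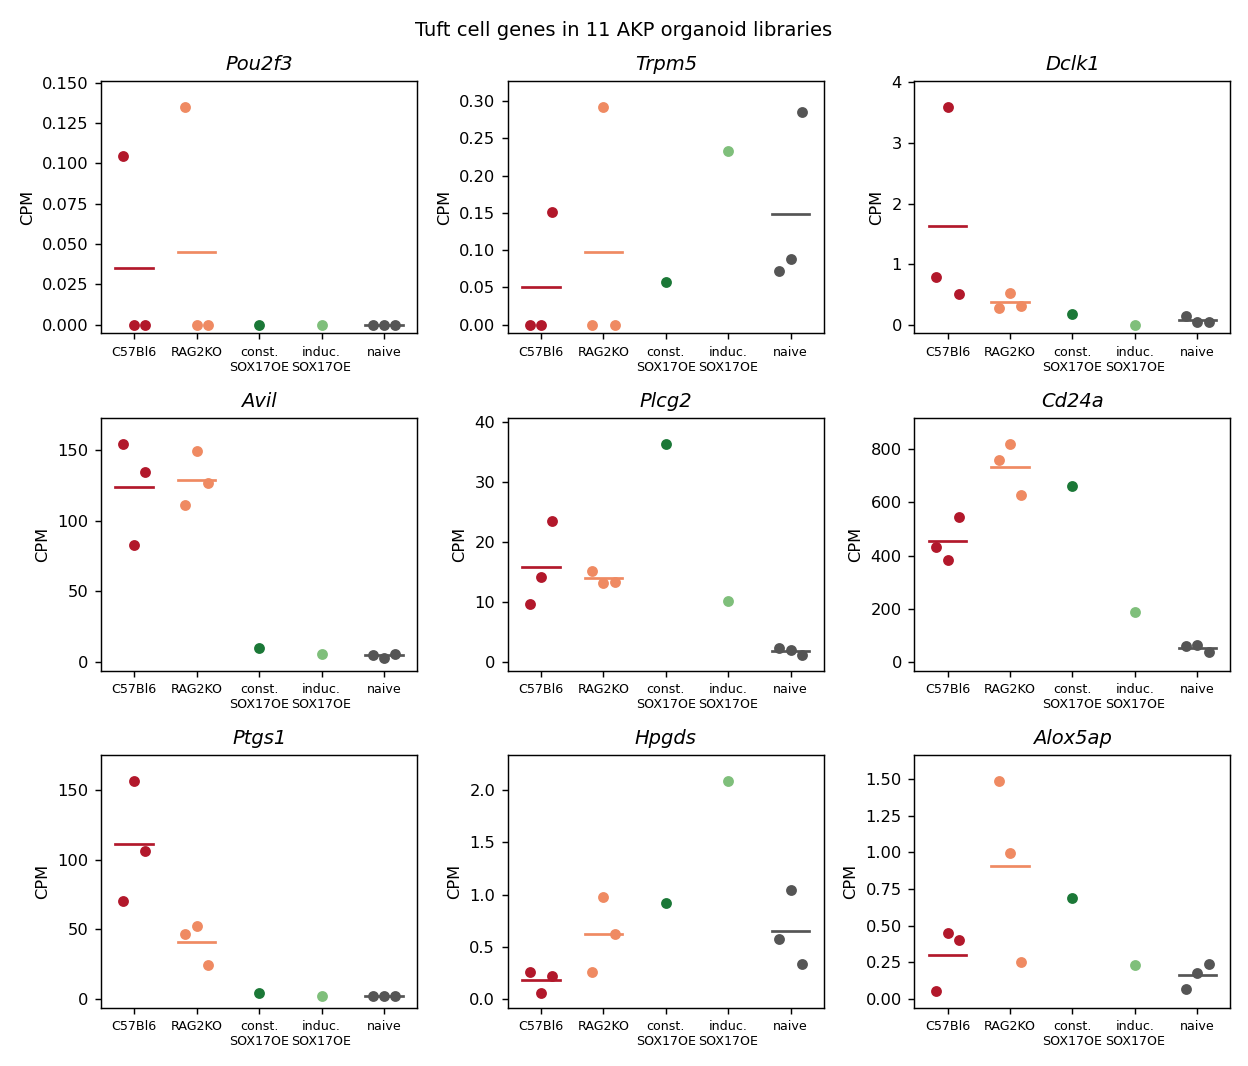
Level of the 9 tuft cell genes with a row, in CPM on a linear axis that includes 0 in each panel, in the C57Bl6 tumour-derived (3 libraries), RAG2KO tumour-derived (3), constitutive SOX17OE (1), inducible SOX17OE (1) and naive (3) groups; points are libraries and lines are group means. Avil and Ptgs1 stand high in the tumour-derived libraries alone, and Pou2f3 and Trpm5 stay under 0.3 CPM. Plcg2 and Cd24a exceed every naive library in both SOX17OE lines as well, and are higher in the constitutive line.

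The promoter sequences of Avil, Ptgs1, Plcg2 and Hpgds are shown because the first 3 genes rose in both kinds of tumour-derived organoid and the last did not, while POU2F3, which binds octamer-type DNA, had next to no transcript. Sequences are from RefSeq (GRCm38.p6), 250 bases before to 50 bases after the annotated start, on the gene's strand, and capitals mark the octamer-type letters ATGCAAA or their reverse complement TTTGCAT. Avil at chr10:127000459-127000758 is plus strand, Ptgs1 at chr2:36230176-36230475 plus strand, Plcg2 at chr8:117498025-117498324 plus strand and Hpgds at chr6:65144681-65144980 minus strand.
Avil: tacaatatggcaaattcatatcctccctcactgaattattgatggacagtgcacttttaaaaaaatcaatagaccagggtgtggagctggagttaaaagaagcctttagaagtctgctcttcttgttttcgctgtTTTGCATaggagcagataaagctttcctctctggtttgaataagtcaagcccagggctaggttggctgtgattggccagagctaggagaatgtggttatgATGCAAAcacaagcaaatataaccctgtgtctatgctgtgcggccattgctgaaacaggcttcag
Ptgs1: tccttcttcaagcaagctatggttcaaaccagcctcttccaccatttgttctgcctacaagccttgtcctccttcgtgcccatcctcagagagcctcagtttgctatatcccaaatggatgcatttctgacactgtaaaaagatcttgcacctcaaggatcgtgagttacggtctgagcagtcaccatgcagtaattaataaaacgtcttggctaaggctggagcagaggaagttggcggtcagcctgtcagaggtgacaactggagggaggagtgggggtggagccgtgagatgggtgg
Plcg2: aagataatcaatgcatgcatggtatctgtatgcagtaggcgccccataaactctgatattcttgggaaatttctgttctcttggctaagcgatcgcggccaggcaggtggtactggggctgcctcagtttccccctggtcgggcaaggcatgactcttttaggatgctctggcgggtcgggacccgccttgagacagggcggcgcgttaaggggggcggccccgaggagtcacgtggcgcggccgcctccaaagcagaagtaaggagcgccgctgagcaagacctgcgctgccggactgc
Hpgds: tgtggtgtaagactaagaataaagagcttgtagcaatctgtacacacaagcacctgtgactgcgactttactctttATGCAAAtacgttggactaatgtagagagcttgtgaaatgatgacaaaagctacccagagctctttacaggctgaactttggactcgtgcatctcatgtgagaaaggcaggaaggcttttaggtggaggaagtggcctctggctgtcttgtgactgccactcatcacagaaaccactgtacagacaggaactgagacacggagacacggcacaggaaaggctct

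Of the 10 genes, 7 had a promoter in the RefSeq table. The Avil promoter held 2 octamer-type matches, 1 on the reverse strand starting 115 bases before the start site and 1 on the forward strand starting 15 bases before it. Hpgds held 1, at 174 bases before its start site, and the Ptgs1 and Plcg2 promoters held none, as did those of Trpm5, Dclk1 and Sh2d6. Over all 32851 RefSeq promoters of this length, 4.63% held at least 1 such match on either strand. The SOX-type letters CATTGT or ACAATG were found in 12.6% of all promoters and, among the tuft cell genes, in 1 of the 2 Dclk1 promoters. No match of one motif overlapped a match of the other in these promoters. The Avil promoter was at 43% GC with 2 CpG sites and the Ptgs1 promoter at 50.7% with 6, while the Plcg2 promoter was at 60% with 21, against medians of 52.7% and 7 over all promoters.

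Plcg2 encodes phospholipase C gamma 2, which makes the second messengers that release intracellular calcium. It was at 9.64, 14.1 and 23.5 CPM in C57Bl6 tumour-derived, 15.2, 13.2 and 13.3 CPM in RAG2KO tumour-derived, 36.3 CPM in constitutive SOX17OE and 10.1 CPM in inducible SOX17OE libraries, against 2.36, 1.97 and 1.19 CPM in naive libraries. Every library outside the naive group was at 9.64 CPM or more and every naive library at 2.36 CPM or less. Against naive, Plcg2 rose 8.63-fold in C57Bl6 tumour-derived libraries (log2 fold change 3.11, SE 0.35, adjusted p = 5.14e-04) and 7.63-fold in RAG2KO tumour-derived libraries (2.93, SE 0.35, adjusted p = 6.15e-04). Because leukocytes also make Plcg2, the leukocyte markers are given beside it: Ptprc, the pan-leukocyte gene, stayed at 0.157 to 1.01 CPM in C57Bl6 tumour-derived and 0.117 to 0.135 CPM in RAG2KO tumour-derived libraries, against 0.0876 to 0.238 CPM in naive libraries. In RAG2KO tumour-derived libraries 2 of the 6 tested markers rose against naive, Csf1r (0.710 against 0.0476 CPM) and Cd14 (60.2 against 33.7 CPM). Over all tested genes, 16.0% rose in this comparison and 9.50% in C57Bl6 tumour-derived against naive libraries. Csf1r passed the filter on low counts only through RAG2KO tumour-derived libraries, the group in which it was called. Of the 4 tested fibroblast and smooth muscle markers, Acta2 rose against naive in both kinds of tumour-derived organoid. It passed the filter only through tumour-derived libraries. Acta2 was at 0.734 to 1.23 CPM in C57Bl6 tumour-derived and 0.437 to 1.28 CPM in RAG2KO tumour-derived libraries, against 0.0715 to 0.191 CPM in naive libraries. The sum of 10 such markers was 0.996 to 2.24 CPM in C57Bl6 tumour-derived and 0.811 to 10.2 CPM in RAG2KO tumour-derived libraries, 6.80 CPM in the constitutive and 0.699 CPM in the inducible SOX17OE line, and 0.286 to 0.524 CPM in naive libraries, with Thy1 and Des at 0 in all tumour-derived libraries. The part of these cell types in the levels of the tuft cell genes was not tested.

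Cd24a encodes a small glycosylphosphatidylinositol-anchored surface protein that is high on tuft cells and on many epithelial progenitors. It was at 434, 383 and 544 CPM in C57Bl6 tumour-derived, 759, 819 and 627 CPM in RAG2KO tumour-derived, 661 CPM in constitutive SOX17OE and 186 CPM in inducible SOX17OE libraries, against 60.8, 63.7 and 37.0 CPM in naive libraries. Every library outside the naive group exceeded every naive library. Cd24a rose 8.44-fold in C57Bl6 tumour-derived libraries (log2 fold change 3.08, SE 0.23, adjusted p = 4.64e-05) and 13.7-fold in RAG2KO tumour-derived libraries (3.77, SE 0.24, adjusted p = 2.59e-05). Its estimated counts were not whole in 9 of 11 libraries, as happens where reads match several places and are divided among them, and its level is uncertain to that extent. Hpgds had counts that were not whole in 7 of 11 libraries.

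Among the eicosanoid genes, Ptgs1 rose in both kinds of tumour-derived organoid against naive, and Hpgds and Alox5ap did not pass the test. Ptgs1 encodes cyclooxygenase 1, which turns arachidonic acid into prostaglandin H2. It was at 70.3, 156 and 106 CPM in C57Bl6 tumour-derived, 46.4, 52.2 and 24.1 CPM in RAG2KO tumour-derived, 4.32 CPM in constitutive SOX17OE and 2.16 CPM in inducible SOX17OE libraries, against 1.93, 1.97 and 2.19 CPM in naive libraries. The C57Bl6, RAG2KO and remaining libraries formed 3 ranges that did not overlap. Ptgs1 rose 54.3-fold against naive in C57Bl6 tumour-derived libraries (log2 fold change 5.76, SE 0.40, adjusted p = 4.1e-05) and 20.01-fold in RAG2KO tumour-derived libraries (4.32, SE 0.39, adjusted p = 1.71e-04). Hpgds encodes the synthase that makes prostaglandin D2 from prostaglandin H2. It was at 0.262, 0.0567 and 0.224 CPM in C57Bl6 tumour-derived, 0.257, 0.979 and 0.624 CPM in RAG2KO tumour-derived, 0.923 CPM in constitutive SOX17OE and 2.08 CPM in inducible SOX17OE libraries, against 0.572, 1.04 and 0.334 CPM in naive libraries. C57Bl6 tumour-derived libraries lay below all naive libraries, without passing the test (log2 fold change -1.87, SE 0.74, adjusted p = 0.118), though limma voom called it (adjusted p = 0.0365). RAG2KO tumour-derived and naive libraries overlapped (-0.05, SE 0.67, adjusted p = 0.962). Alox5ap encodes the 5-lipoxygenase activating protein, which hands arachidonic acid to the enzyme that starts leukotriene synthesis. It was at 0.0524, 0.448 and 0.404 CPM in C57Bl6 tumour-derived, 1.48, 0.993 and 0.249 CPM in RAG2KO tumour-derived, 0.692 CPM in constitutive SOX17OE and 0.233 CPM in inducible SOX17OE libraries, against 0.0715, 0.175 and 0.238 CPM in naive libraries. It passed the test in neither kind of tumour-derived organoid against naive (0.82, SE 0.91, adjusted p = 0.594, C57Bl6; 2.38, SE 0.87, adjusted p = 0.0641, RAG2KO). The RAG2KO value was called without RAG2KO replicate 3 (adjusted p = 0.0357), without C57Bl6 replicate 1 (0.0397) and with limma voom (0.0475). Alox5, the lipoxygenase it serves, had 4 counts in all 11 libraries, and Ltc4s, which conjugates leukotriene A4, had 39.

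**Figure D2:**
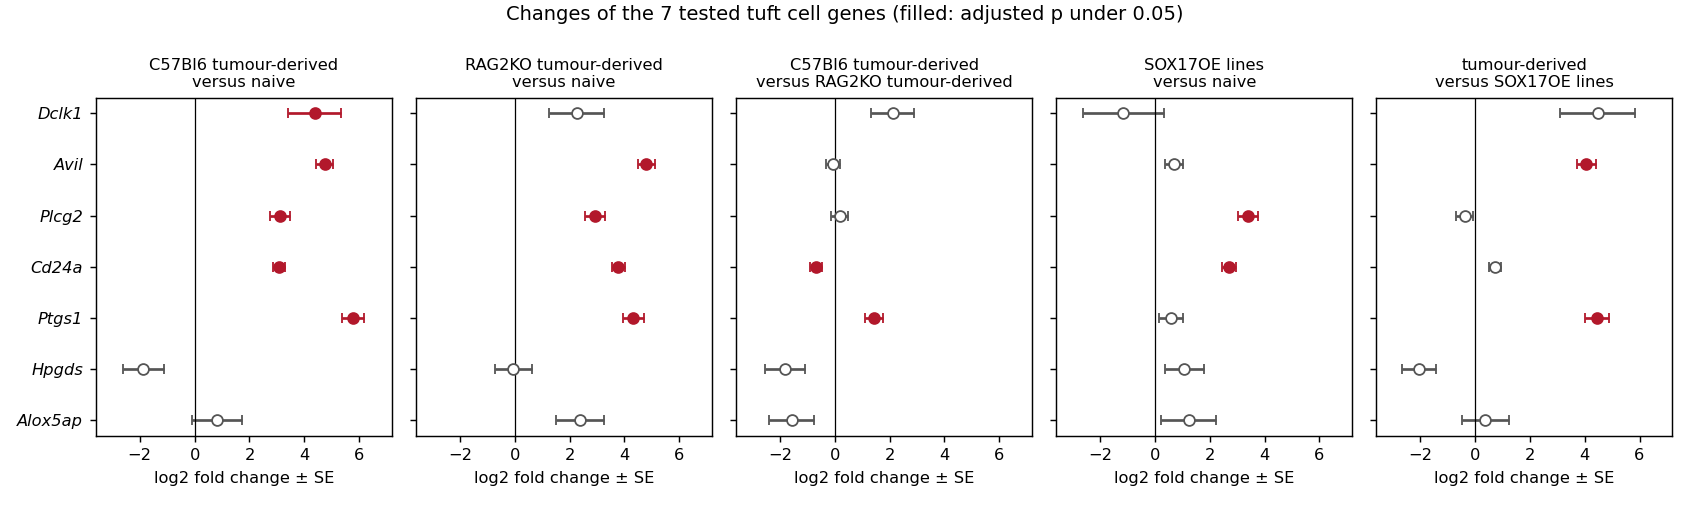
Log2 fold change with SE for the 7 tested tuft cell genes in each of 5 comparisons, with filled red points for changes at an adjusted p under 0.05. Avil and Ptgs1 sit at 4.07 or higher in the 3 comparisons of tumour-derived libraries with naive or SOX17OE libraries and near 0.6 to 0.7 in the comparison of SOX17OE lines with naive, where Plcg2 and Cd24a sit at 3.39 and 2.70.

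Counted together, 5 of the 7 tested genes rose and 0 fell in C57Bl6 tumour-derived against naive libraries, where 9.50% of all tested genes rose and 5.85% fell. In RAG2KO tumour-derived against naive libraries 4 of the 7 rose and 0 fell, beside 16.0% of all tested genes that rose and 13.3% that fell. The median log2 fold change of the 7 was 3.11 in C57Bl6 tumour-derived and 2.93 in RAG2KO tumour-derived libraries, with a median of all tested genes of 0.02 in both. The 2 comparisons share the naive libraries. These counts and medians describe the genes that passed the filter: Dclk1 reached 10 counts only in C57Bl6 tumour-derived libraries, the group in which it was called, and it was not tested under a filter of 1 CPM in at least 3 libraries, where 4 members were called in each comparison. The calls of Avil, Ptgs1, Plcg2 and Cd24a held in both comparisons under each of 19 alternatives, those that leave out a library included.

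Between the recipients, 1 of the 7 genes rose and 1 fell, beside 12.2% of all tested genes that rose and 11.8% that fell in C57Bl6 tumour-derived against RAG2KO tumour-derived libraries. Ptgs1 was 2.71-fold higher in C57Bl6 tumour-derived libraries (111 ± 43.1 CPM in C57Bl6 tumour-derived, 40.9 ± 14.8 CPM in RAG2KO tumour-derived; SD, n = 3 each; log2 fold change 1.44, SE 0.32, adjusted p = 0.0130), with log2 fold changes of 1.11 to 1.68 and adjusted p of at most 0.0399 over 19 alternatives. Cd24a was lower in C57Bl6 tumour-derived libraries (454 ± 82.2 CPM in C57Bl6 tumour-derived, 735 ± 98.0 CPM in RAG2KO tumour-derived; SD, n = 3 each; log2 fold change -0.70, SE 0.21, adjusted p = 0.0395). That call ended in 9 of 19 alternatives. Beside the fit with a replicate block, it ended with library totals in place of TMM scaling (adjusted p = 0.0655), with limma voom (0.0723) and without naive replicate 2 (0.0516), C57Bl6 replicate 1 (0.0920), C57Bl6 replicate 2 (0.106), RAG2KO replicate 1 (0.0796), RAG2KO replicate 2 (0.101) or RAG2KO replicate 3 (0.0513). Avil and Plcg2 did not pass the test between the recipients (log2 fold change -0.06, SE 0.27, adjusted p = 0.888, and 0.18, SE 0.31, adjusted p = 0.701). Dclk1 was at 2.11 (SE 0.80, adjusted p = 0.0794), Hpgds at -1.82 (SE 0.75, adjusted p = 0.0998) and Alox5ap at -1.57 (SE 0.83, adjusted p = 0.184).

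In the SOX17OE lines against naive organoids, Plcg2 and Cd24a rose while Avil and Ptgs1 did not pass the test. The mean of the lines was compared with naive organoids, with 1 library in each line. Of the 7 tested genes, 2 rose and 0 fell, beside 6.77% of all tested genes that rose and 5.92% that fell. Plcg2 was 10.5-fold higher (log2 fold change 3.39, SE 0.38, adjusted p = 0.00151) and Cd24a 6.52-fold higher (2.70, SE 0.24, adjusted p = 6.43e-04). In the constitutive line Plcg2 was at 19.7 times, Cd24a at 12.3 times, Avil at 2.18 times and Ptgs1 at 2.13 times the naive mean. In the inducible line Plcg2 was at 5.51 times, Cd24a at 3.46 times, Avil at 1.20 times and Ptgs1 at 1.06 times the naive mean. The constitutive line had the higher level of each of these 4 genes and of Sox17. Without the constitutive line the log2 fold change was 2.47 for Plcg2 (adjusted p = 0.0415) and 1.79 for Cd24a (0.0289), and without the inducible line it was 4.31 for Plcg2 and 3.62 for Cd24a. Avil was at 0.70 (SE 0.34, adjusted p = 0.186), with a call under limma voom (1.18, adjusted p = 0.0396), and Ptgs1 at 0.58 (SE 0.45, adjusted p = 0.408). Of the 3 tested endothelial markers, 1 rose and 0 fell in this comparison. Among the 3, Cdh5 passed the filter on low counts only through the SOX17OE lines. The part of marker genes in these values was not tested.

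**Figure D3:**
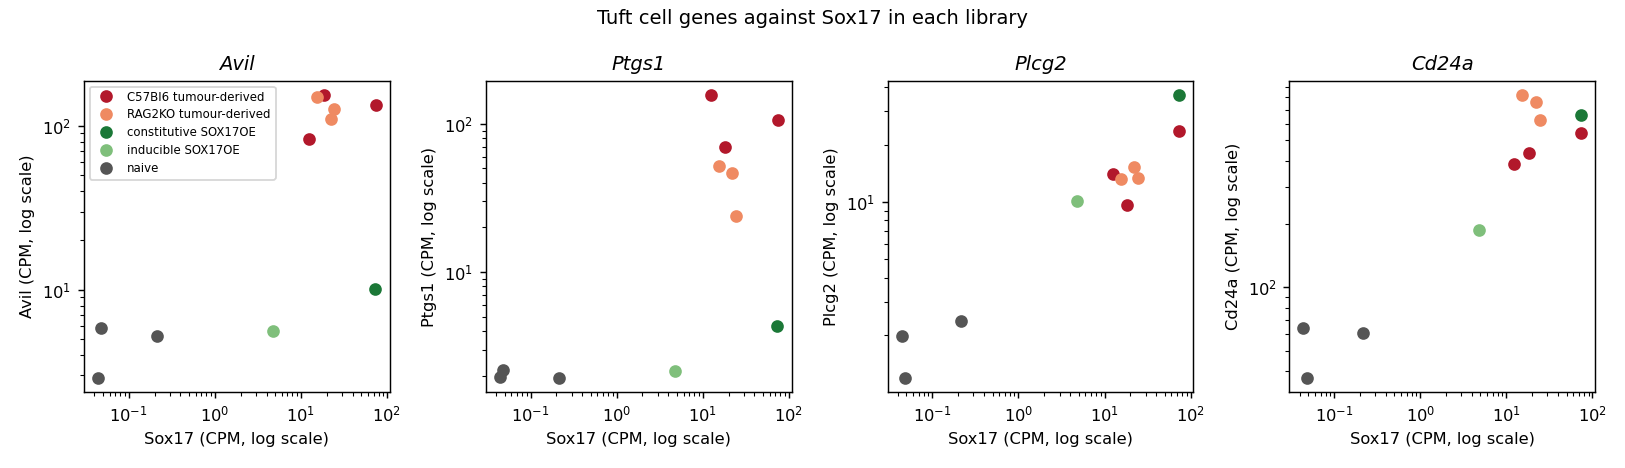
Avil, Ptgs1, Plcg2 and Cd24a levels (CPM, log scale) against the Sox17 level (CPM, log scale), 1 point for each of the 11 libraries, coloured by group. The constitutive SOX17OE library, at 72.7 CPM Sox17, has 10.1 CPM Avil and 4.32 CPM Ptgs1, while C57Bl6 tumour-derived replicate 3, at 74.4 CPM Sox17, has 134 CPM Avil and 106 CPM Ptgs1.

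The difference between tumour-derived organoids and SOX17OE lines was tested directly, in a comparison added after the values had been seen. The mean of the 2 tumour-derived groups (6 libraries) was set against the mean of the 2 lines (2 libraries). Of the 7 tested genes, 2 rose and 0 fell, beside 6.73% of all tested genes that rose and 4.90% that fell. Avil was 16.8-fold higher (log2 fold change 4.07, SE 0.35, adjusted p = 2.8e-04) and the log2 fold change of Ptgs1 was 4.46 (SE 0.44, adjusted p = 5.23e-04), and both calls held under 18 alternatives each. Plcg2 was at -0.37 (SE 0.31, adjusted p = 0.462) and Cd24a at 0.72 (SE 0.22, adjusted p = 0.0631). Cd24a was called by DESeq2 (adjusted p = 0.0100), by limma voom (0.0327), without naive replicate 3 (0.0256) and without the constitutive line (1.63, adjusted p = 0.0228). Dclk1 was at 4.47 (SE 1.36, adjusted p = 0.0594), called by DESeq2 (0.0297) and without C57Bl6 replicate 3 (0.0429). Hpgds ran the other way, at -2.04 (SE 0.63, adjusted p = 0.0625), and was called by limma voom (0.0460) and without RAG2KO replicate 2 (0.0491). Alox5ap was at 0.37 (SE 0.86, adjusted p = 0.814). Of the marker lists, Cd14 (52.6 against 25.03 CPM) and Acta2 (0.929 against 0.115 CPM) also rose in this comparison. Acta2 passed the filter on low counts only through tumour-derived libraries. Of the 5 epithelial markers 2 rose and 0 fell, and the endothelial marker Cdh5 fell (0.0806 against 2.02 CPM). Cdh5 passed the filter only through the SOX17OE lines. The part of these markers in the difference was not tested. Sox17 was at 12.4 to 74.4 CPM in tumour-derived libraries, at 72.7 CPM in the constitutive line and at 4.78 CPM in the inducible line.

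Of the 25 further tuft cell genes that could be tested, 5 rose and 2 fell in C57Bl6 tumour-derived against naive libraries, beside 9.50% and 5.85% of all tested genes. Ptgs2, which encodes cyclooxygenase 2, had a log2 fold change of 2.65 (SE 0.48, adjusted p = 0.00599; 20.05 against 3.19 CPM) and the keratin gene Krt18 one of 0.64 (SE 0.13, adjusted p = 0.00816; 1815 against 1162 CPM). Skap2, an adaptor of Src kinases, rose by 0.66 (SE 0.15, adjusted p = 0.0141), a call that ended without naive replicate 2 (0.0593). Atp2a3, a calcium pump of the endoplasmic reticulum, fell by 2.58 (SE 0.54, adjusted p = 0.0127; 20.6 against 124 CPM). Il17rb, the interleukin-25 receptor chain, fell by 1.87 (SE 0.44, adjusted p = 0.0187; 0.760 against 2.79 CPM), a call lost when C57Bl6 replicate 2 (0.0520) or 3 (0.0655) or naive replicate 2 (0.0571) or 3 (0.0706) was left out. Vav1 was also among the 5 that rose, a call that ended when 5 of the 11 libraries were left out in turn. The median log2 fold change of the 25 genes was 0.64, against 0.02 for all tested genes. The 25 include Sh2d7, Gprc5c and Cd300lf, which passed the filter on low counts only through tumour-derived libraries.

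In RAG2KO tumour-derived against naive libraries 8 of the 25 rose and 2 fell, beside 16.0% and 13.3% of all tested genes, with a median of 0.59. Among the 8 were Espn, Ptpn6, Sh2d7 and Gprc5c, whose calls ended when 4, 5, 5 and 5 of the 11 libraries were left out in turn. Gprc5c reached 2.22 CPM in RAG2KO tumour-derived libraries and at most 0.419 CPM elsewhere. It passed the filter on low counts only through that group, in which it was called. Sh2d7 passed it only through tumour-derived libraries, at up to 0.944 CPM there and at most 0.231 CPM elsewhere. The median of the 25 genes includes both. The log2 rise of Skap2 was 1.0 (SE 0.15, adjusted p = 0.00154; 143 against 71.5 CPM) and that of the keratin gene Krt23 1.62 (SE 0.30, adjusted p = 0.00437; 421 against 137 CPM). The Src family kinase gene Lyn fell by 0.59 (SE 0.12, adjusted p = 0.00655; 20.1 against 30.4 CPM). Atp2a3 fell by 2.10 (SE 0.53, adjusted p = 0.0182; 28.8 against 124 CPM). Its call was lost when RAG2KO replicate 1 (0.0607) or naive replicate 2 (0.0506) or 3 (0.0620) was left out and with no filter (0.0502), and it was at -2.93 without RAG2KO replicate 3. Vav1, a guanine nucleotide exchange factor that leukocytes also make, rose by 2.42 (SE 0.64, adjusted p = 0.0191; 4.29 against 0.791 CPM), a call lost when RAG2KO replicate 2 (0.0640) or naive replicate 1 (0.0620) or 2 (0.0714) was left out.

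**Figure D4:**
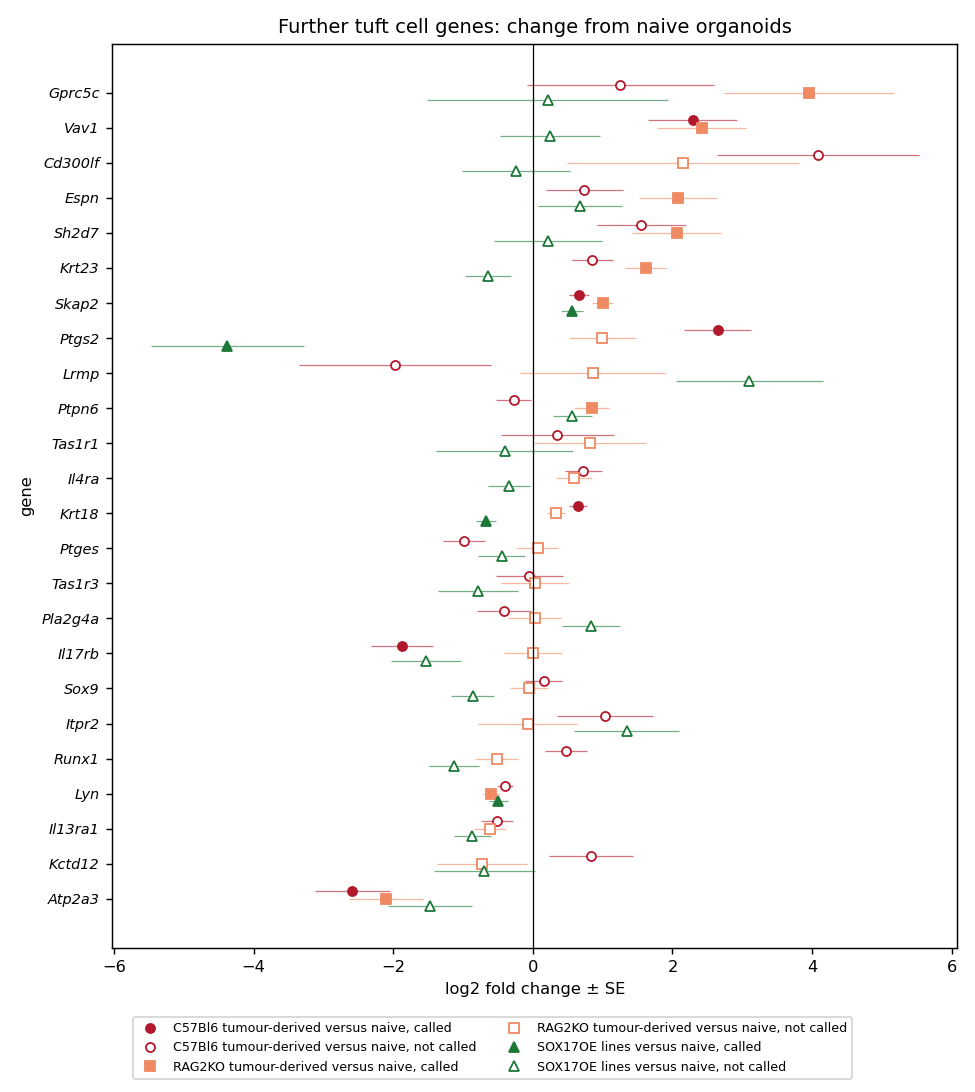
Log2 fold change with SE of further tuft cell genes against naive organoids, in C57Bl6 tumour-derived libraries (circles), RAG2KO tumour-derived libraries (squares) and SOX17OE lines (triangles), filled where the adjusted p is under 0.05. Most symbols are open, and Ptgs2 is at 2.65 in C57Bl6 tumour-derived libraries and at -4.38 in SOX17OE lines, where the constitutive library is at 0 CPM.

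Between the recipients, 2 of the 25 genes rose and 3 fell in C57Bl6 tumour-derived against RAG2KO tumour-derived libraries, with a median of -0.13. With 12.2% of all tested genes rising and 11.8% falling, this is no more than the share over all genes. The log2 fold change of Ptgs2 was 1.66 (SE 0.46, adjusted p = 0.0295, and the gene was at 29.6, 16.0 and 14.6 CPM in C57Bl6 tumour-derived libraries, against 4.18, 11.1 and 3.74 CPM in RAG2KO tumour-derived libraries. The call ended without C57Bl6 replicate 1 (0.0860), RAG2KO replicate 1 (0.0817) or RAG2KO replicate 3 (0.0869) and in a fit of only the groups compared (0.0551), and the value was 2.34 without RAG2KO replicate 2. The groups did not overlap, and C57Bl6 tumour-derived libraries were the higher ones for both cyclooxygenase genes. Ptpn6, a tyrosine phosphatase of haematopoietic and epithelial cells, fell by 1.11 (SE 0.25, adjusted p = 0.0132; 22.01 against 47.7 CPM), and this call held without any one library. Il17rb fell by 1.87 (SE 0.44, adjusted p = 0.0157), a call that ended without C57Bl6 replicate 3 (0.0565) or RAG2KO replicate 3 (0.0537). Ptges, the prostaglandin E synthase gene, fell by 1.05 (SE 0.30, adjusted p = 0.0317; 13.5 against 28.1 CPM) and the transcription factor gene Runx1 rose by 0.99 (SE 0.31, adjusted p = 0.0419; 29.6 against 14.9 CPM). The Ptges call ended without naive replicate 2 (0.0506), C57Bl6 replicate 1 (0.0696), 2 (0.0513) or 3 (0.0969), or RAG2KO replicate 3 (0.0880), and in a fit of only the groups compared (0.0578). The Runx1 call ended without naive replicate 2 (0.0657), C57Bl6 replicate 1 (0.106), 2 (0.0838) or 3 (0.0506), or RAG2KO replicate 1 (0.0792) or 3 (0.124), and with limma voom (0.0657).

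In the SOX17OE lines against naive organoids 2 of the 25 rose and 3 fell, beside 6.77% and 5.92% of all tested genes, with a median of -0.40, against -0.01 for all tested genes. Ptgs2 was at 0 CPM in the constitutive line and 3.38 CPM in the inducible line, against 2.72, 2.32 and 4.53 CPM in naive libraries. It was called as lower, and the fitted log2 fold change of -4.38 rests on the constitutive library, without which it was 0.081 (adjusted p = 0.967). The call also ended without naive replicate 2 (0.0583) or 3 (0.0788) and with limma voom (0.0997). Krt18 fell by 0.67 (SE 0.14, adjusted p = 0.0189), which ended without the constitutive line (0.210), naive replicate 2 (0.0601) or naive replicate 3 (0.0545). In tumour-derived organoids against the SOX17OE lines 4 of the 25 rose and 1 fell, beside 6.73% and 4.90% of all tested genes. The median was 0.78 against 0.03 for all tested genes. It includes Sh2d7, Gprc5c and Cd300lf, which passed the filter only through tumour-derived libraries, and Lrmp, which passed it only through the constitutive line. Krt18 rose by 1.16 (SE 0.14, adjusted p = 0.00115; 1640 against 737 CPM). Krt23 was called, at 1.88 (SE 0.33, adjusted p = 0.00782), and was 0.12 without the constitutive line (adjusted p = 0.882). Ptgs2 was called as well, and its call ended without the constitutive line (1.74, adjusted p = 0.170). Il4ra, an interleukin-4 receptor chain gene, was called (63.9 against 32.8 CPM, adjusted p = 0.0462), and 9 of 11 single libraries ended that call when left out (adjusted p up to 0.336), as did a fit of only the groups compared (0.0537) and DESeq2 size factors (0.0503). Lrmp was the gene that fell (adjusted p = 0.0361): it was at 0 to 0.270 CPM in tumour-derived libraries, against 2.82 CPM in the constitutive and 0.233 CPM in the inducible line. Its call was lost when C57Bl6 replicate 1 (0.0552) or 2 (0.0551) or naive replicate 1 (0.0521) or 2 (0.0564) was left out, and also in a fit of only the groups compared (0.0766). Without the constitutive line Lrmp had too few counts to be tested, so that the call rests on that library.

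Relatives of the 10 genes were followed to see whether the changes ran through their families. Of 14 listed, 12 could be tested, and 2 rose and 2 fell in C57Bl6 tumour-derived against naive libraries, beside 9.50% and 5.85% of all tested genes. In the villin and gelsolin family of Avil, the gelsolin gene Gsn had a log2 fold change of 1.03 (SE 0.16, adjusted p = 0.00262; 199 against 97.8 CPM) and Vill, a villin-like gene, one of 2.06 (SE 0.33, adjusted p = 0.00333; 55.8 against 13.3 CPM), while Vil1, the brush border villin gene, fell by 0.83 (SE 0.14, adjusted p = 0.00431; 230 against 408 CPM). Trpm4, the channel gene closest to Trpm5, fell by 0.82 (SE 0.14, adjusted p = 0.00473; 29.5 against 51.9 CPM). In RAG2KO tumour-derived against naive libraries 2 rose and 1 fell, a share near the 16.0% and 13.3% of all tested genes: Vill by 3.15 (SE 0.34, adjusted p = 4.38e-04), Gsn by 0.64 (SE 0.16, adjusted p = 0.0153), and Pou2f1, a widely expressed relative of Pou2f3, which fell by 0.89 (SE 0.16, adjusted p = 0.00385). The Gsn call ended without naive replicate 1 (0.0580) or 2 (0.0695). Pou2f1 was at 22.7, 17.2 and 21.5 CPM in C57Bl6 tumour-derived and 11.3, 9.81 and 11.7 CPM in RAG2KO tumour-derived libraries, against 19.7, 19.0 and 22.1 CPM in naive libraries. The naive and C57Bl6 tumour-derived ranges overlapped and the RAG2KO tumour-derived range lay below both. Vill was 39.6 to 78.0 CPM in C57Bl6 tumour-derived and 97.4 to 138 CPM in RAG2KO tumour-derived libraries. It was at 25.6 CPM in the constitutive and 24.4 CPM in the inducible SOX17OE line, against 9.43 to 20.1 CPM in naive libraries, and it rose in tumour-derived organoids against the lines (1.70, SE 0.35, adjusted p = 0.0159), a call that ended without the constitutive (0.0684) or inducible (0.0813) line.

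Genes that followed Avil most closely over the 11 libraries were chosen by the smallest root mean square difference of log2 CPM, centred on each gene's own mean. They were Ccdc80 (0.53), Rec8 (0.61) and Pvrl4 (0.63). Ccdc80 averaged 24.6 CPM in C57Bl6 tumour-derived and 22.5 CPM in RAG2KO tumour-derived libraries and was at 1.61 CPM in constitutive SOX17OE and 0.991 CPM in inducible SOX17OE libraries, against 0.635 CPM in naive libraries. For Ptgs1 the nearest genes were Aldh1a2 (0.36), Nrp1 (0.56) and Samd4 (0.59). Samd4 averaged 22.6 CPM in C57Bl6 tumour-derived and 7.53 CPM in RAG2KO tumour-derived libraries and was at 1.32 CPM in constitutive SOX17OE and 0.175 CPM in inducible SOX17OE libraries, against 0.370 CPM in naive libraries. These levels describe the likeness and carry no test.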

How the data were processed

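RNA was measured in 11 poly(A) libraries made with a directional kit, per the labels' protocols. The authors deposited RSEM expected counts per gene name, from reads aligned with Bowtie to mm9, per the submitters' processing notes, with versions, annotation and strand setting not given in the sources used here. The expected counts were rounded to whole numbers, filtered with filterByExpr, scaled by TMM and fitted in all 11 libraries and 5 groups with the robust quasi-likelihood test of edgeR 4.0.16 (R 4.3.3), two-sided, with Benjamini-Hochberg adjustment over 13720 genes and calls at an adjusted p under 0.05. The common dispersion was 0.0641 with 6 residual degrees of freedom, and each single SOX17OE library was assumed to vary like the other groups. Standard errors (SE) were obtained as |log2 fold change| over √F. CPM values use TMM-scaled library totals. The labels do not say that replicates came from separate cultures or mice, so p-values measure only the spread between these samples, which may be technical.

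The members, lists and comparisons were chosen with earlier results of these data known. Beside the members, the text names Sox17, the first called genes (at most 6) by adjusted p of the lists of further tuft cell genes and of relatives in each comparison, except a few that are left out, and the 3 genes nearest to Avil and to Ptgs1. 1 gene of the list of further tuft cell genes is counted but not reported here. Other list genes, among them those too low to test, markers and Tsfm, were named after their values were seen. Promoters and overlaps come from RefSeq and GENCODE annotations of GRCm38, another build than that of the counts, and were matched by gene name. DESeq2 1.42.0 and limma 3.58.1 (voom with sample weights) were alternatives. The edgeR, DESeq2 and voom steps were tested on simulated data.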

Additional observations from a re-analysis of the deposited data

Results flagged for a closer look

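The comparison of C57Bl6 tumour-derived with RAG2KO tumour-derived libraries tests whether a change from naive organoids differs between the recipients, and 11 of 44 tested genes of the lists passed it in edgeR's quasi-likelihood test. That is 25%, beside 24% of all tested genes, so that the number is not particular to the lists. Among the tuft cell genes these were Ptgs1, with a log2 difference of 1.44 (adjusted p = 0.0130), and Cd24a, with -0.70 (adjusted p = 0.0395). Among the further tuft cell genes they were Ptgs2 with 1.66, Runx1 with 0.99, Ptges with -1.05, Ptpn6 with -1.11 and Il17rb with -1.87. Among the relatives they were Pou2f1 with 0.90 (adjusted p = 0.00531), Svil, a gene of the villin and gelsolin family, with 0.64 (adjusted p = 0.0241), Trpm4 with -0.61 (adjusted p = 0.0155) and Vill with -1.09 (adjusted p = 0.0337). Of the last group, the Svil call ended without C57Bl6 replicate 1 (0.0701), C57Bl6 replicate 3 (0.0550) or RAG2KO replicate 1 (0.0550) and in a fit of only the groups compared (0.0587), and the Trpm4 call without RAG2KO replicate 3 (0.0533). The Vill call ended without C57Bl6 replicate 2 (0.0860), C57Bl6 replicate 3 (0.0979), RAG2KO replicate 2 (0.0838) or RAG2KO replicate 3 (0.0766) and with no filter (0.0508). The libraries of the recipients did not overlap for any of the 11 genes, but these were chosen by their calls in this same comparison. The lack of overlap therefore adds no support to the calls.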

How the results depend on the processing

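Over 622 alternatives for the tested members, 587 kept direction and side of the threshold, 11 lost a call, 14 gained one and 10 changed sign, none of the last in a called value; the cause was not tested. Between the recipients 1 member was called, against 2, with library totals, with limma voom and with the replicate number as a block, and Avil was at 0.034 with library totals. In SOX17OE lines against naive, DESeq2 called 2711 genes, limma voom 3825 and a fit of only the groups compared 2630, against 1741; in tumour-derived against SOX17OE lines DESeq2 called 2417 and a fit of only the groups compared 912, against 1595, and DESeq2 and limma voom called 4 members each, against 2. Limma voom called 4086 genes in C57Bl6 tumour-derived against naive, against 2106.

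Leaving out each library in turn gave 1030 to 2328 genes and 4 to 5 members in C57Bl6 tumour-derived against naive, 2041 to 4184 and 4 to 5 in RAG2KO tumour-derived against naive, 1857 to 3311 and 1 to 2 between the recipients, 85 to 1931 and 2 to 2 in SOX17OE lines against naive, and 674 to 1599 and 2 to 3 in tumour-derived against SOX17OE lines. The lowest counts came without naive replicate 2 (1030, 2041), C57Bl6 replicate 3 (1857) and the constitutive line (85, 674). The values that changed sign ranged over the left-out libraries from -0.54 to 0.50 for Hpgds in RAG2KO tumour-derived against naive, -0.25 to 0.16 for Avil and -0.23 to 0.43 for Plcg2 between the recipients, -3.50 to 1.19 for Dclk1 and -8.85 to 0.081 for Ptgs2 in SOX17OE lines against naive, and -0.40 to 1.14 for Alox5ap, -1.29 to 0.55 for Plcg2 and -0.19 to 1.63 for Cd24a in tumour-derived against SOX17OE lines.

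Same-numbered libraries showed no sign of deviating together (correlations of -0.19 to 0.18, over 0.1 in 2 of 9). Different-numbered libraries gave -0.25 to 0.17. With 3 libraries in each group this check cannot exclude that the numbers pair the samples. With the replicate block 1737, 3453 and 2688 genes were called in C57Bl6 tumour-derived against naive, RAG2KO tumour-derived against naive and between the recipients. The block ended the calls of Cd24a (adjusted p = 0.0620), Runx1 (0.0825), Ptgs2 (0.0617), Vill (0.0540) and Svil (0.0511) between the recipients, and of Vav1 (0.0868) in C57Bl6 and Ptpn6 (0.0584) in RAG2KO tumour-derived against naive libraries. Depth limits Pou2f3, Trpm5, Dclk1, Hpgds and Alox5ap, which had few counts.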
